A study of Mus musculus with 3 samples.

Results

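Interferon response genes were described in mature medullary thymic epithelial cells (mTEC) sorted into 3 libraries. These are the thymic stromal cells that display tissue self-antigens to developing T cells. The members were a fixed list of 39 gene symbols, each matched to the probe set of that symbol alone, with the brightest probe set kept where a gene had several. Of the 39 listed genes, 36 had such a probe set among 19937 genes in all. Of these 36, 34 were measured, against 12556 measured genes in all. Measured means that at least 1 library was as bright as the median over every probe set and library (log2 of 6.81). Isg15 and Gbp2 share their probe sets with another gene and were not given values, and Ifi44 was not analysed here. Mx2 and Samd9l lay under the brightness filter.

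Interferons are cytokines, and those of type I are released by cells that sense viral nucleic acid. Type I interferons bind a receptor made of Ifnar1 and Ifnar2, which leads a complex that holds Stat2 and Irf9 to assemble on interferon-stimulated response elements (ISRE) in the promoters of antiviral genes. Interferon gamma binds Ifngr1 with Ifngr2 and acts mainly on gamma-activated sites (GAS). In the thymus, mTEC are known to express interferons and interferon-stimulated genes without infection.

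All mice were 6 weeks old with the strain label C57b/6, typically 3 animals were pooled per library, and each genotype had 1 library. The WT library came from Sirt1fl/fl mice and the Sirt1cKO library from Sirt1fl/fl Foxn1-Cre mice, in which the floxed deacetylase gene is deleted in thymic epithelium, so these libraries share the floxed allele. The AireKO library came from Aire-/- mice, which lack the main driver of tissue antigen expression in mTEC throughout the body, and no floxed allele is named for them. RNA was amplified and hybridised to Affymetrix Mouse Gene 1-ST arrays, and the values are probe-set intensities. With no replicates there is no test and no error for any value, so each difference describes a pair of libraries and not the genotypes.

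The libraries carry limits that touch every result. Median intensities ranged from 107.8 to 116.4. The free-text descriptions of the knockout libraries name each other's genotype, against their titles and genotype fields, and Aire itself stood at 11.97 in WT, 11.55 in AireKO and 11.24 in Sirt1cKO. Sirt1 stood at 11.40, 11.42 and 11.27 in the same order, so neither targeted gene was 2-fold lower in its own knockout library. Where the probe sets lie relative to the deletions is not known here, so these levels check neither label, and AireKO and Sirt1cKO mean the library labelled so by its title. Xist stood at 12.17, 6.75 and 11.46 and the Y-linked Eif2s3y at 4.23, 9.75 and 8.92 in the order WT, AireKO and Sirt1cKO, so genotype and sex of the pooled mice cannot be told apart. None of the listed genes placed on a chromosome (37 of 39 in the RefSeq table used) lay on X or Y. The MHC class II gene H2-Ea, silent in the labelled strain, stood at 13.23 in AireKO against 5.60 in WT and 5.90 in Sirt1cKO, so a difference in genetic background cannot be told apart from genotype either. The 95th percentile of 1027 olfactory receptor genes served as the background limit, at 6.02 in WT, 6.89 in AireKO and 6.34 in Sirt1cKO.

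Promoters of 30 of the 39 genes were matched by symbol in a RefSeq table (GRCm38.p6) of windows reaching from 250 bases before to 50 bases after a transcript start. Dhx58, Zbp1, Usp18, Oas2, Mx1, Mx2, Rtp4, Parp9 and Parp14 had no entry. Each window was searched on both strands for the ISRE core GAAANNGAAA, which reads TTTCNNTTTC on the other strand, and for the GAS TTCNNNGAA, which reads the same on both. Overlapping matches were counted separately, and a match of one motif may overlap a match of the other. The ISRE core was present in 14 of 37 member windows (37.8%) against 3.44% of all 32851 windows, and the GAS in 11 of 37 (29.7%) against 8.30%. A match describes the letters of the window and not a bound site. The stretches printed next, from base 170 to base 61 before the start, show the tetratricopeptide-repeat antiviral genes Ifit3 and Ifit1, which hold 2 matches each and differed from WT in opposite directions, and the effector genes Rsad2 and Oas3 with 1 match each. Ifit3 lies at chr19:34583359-34583468 and Ifit1 at chr19:34640719-34640828, both on the plus strand, while Rsad2 at chr12:26456513-26456622 and Oas3 at chr5:120777720-120777829 lie on the minus strand. Every sequence is written 5′ to 3′ along its gene, with the ISRE core in capitals.
Ifit3: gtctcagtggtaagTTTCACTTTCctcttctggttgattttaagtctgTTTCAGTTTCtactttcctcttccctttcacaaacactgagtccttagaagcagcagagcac
Ifit1: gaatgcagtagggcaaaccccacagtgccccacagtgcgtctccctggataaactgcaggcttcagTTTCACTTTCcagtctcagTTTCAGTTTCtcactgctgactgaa
Rsad2: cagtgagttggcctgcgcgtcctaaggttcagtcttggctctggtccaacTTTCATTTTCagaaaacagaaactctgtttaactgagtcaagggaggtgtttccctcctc
Oas3: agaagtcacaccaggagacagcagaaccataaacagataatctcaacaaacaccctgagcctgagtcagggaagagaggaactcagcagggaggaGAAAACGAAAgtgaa

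The first comparison set the library labelled AireKO against WT. Interferon response genes stood lower in AireKO than in WT: 31 of 34 measured members lay below WT, against 63.7% of all measured genes, and their median difference was -0.65 on the log2 scale against -0.19 for all measured genes. At least 2-fold lower were 9 members (Irf7, Stat2, Ifit3, Oasl1, Ifi35, Rsad2, Ifit2, Rtp4 and Dhx58), or 26.5%, where 8.46% of all measured genes were at least 2-fold lower. No member was at least 2-fold higher, where 2.68% of all measured genes were. Without the brightness filter the count was 9 of 36 with a median of -0.61, against 5.51% of all 19937 genes. Ifit2 passed the filter through WT alone and lay within background in AireKO, so 8 members remained where a fold against background was taken as its lower bound, against 7.34% of measured genes.

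These counts depend on how the libraries are scaled. After centring, in which a library's median over measured genes is set to 0, 4 of 34 members were at least 2-fold lower (Irf7, Ifit3, Oasl1 and Stat2), the members' median was -0.38, and that of all measured genes was 0.08, where it had been -0.19. Quantile normalization left 8 members (without Dhx58 and Rtp4, with Eif2ak2), where 838 of all 12556 measured genes were at least 2-fold lower. Loess left 6 members (without Dhx58, Rsad2 and Rtp4), where 759 of all measured genes were. Members below WT numbered 29 after quantile normalization, 29 after loess and 28 after centring. All measured genes then had medians of -0.09, -0.07 and 0.08, so the 63.7% below WT as deposited is no reference for these counts. Ifnar2 and Mx1 turned each time, and Irf1 after centring. The gap between the members' median and that of all measured genes was -0.46 as deposited, -0.47 after quantile normalization, -0.44 after loess and -0.46 after centring. The split of all measured genes at 2-fold, 1062 lower and 336 higher as deposited, became 548 and 706 after centring.

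**Figure D1:**
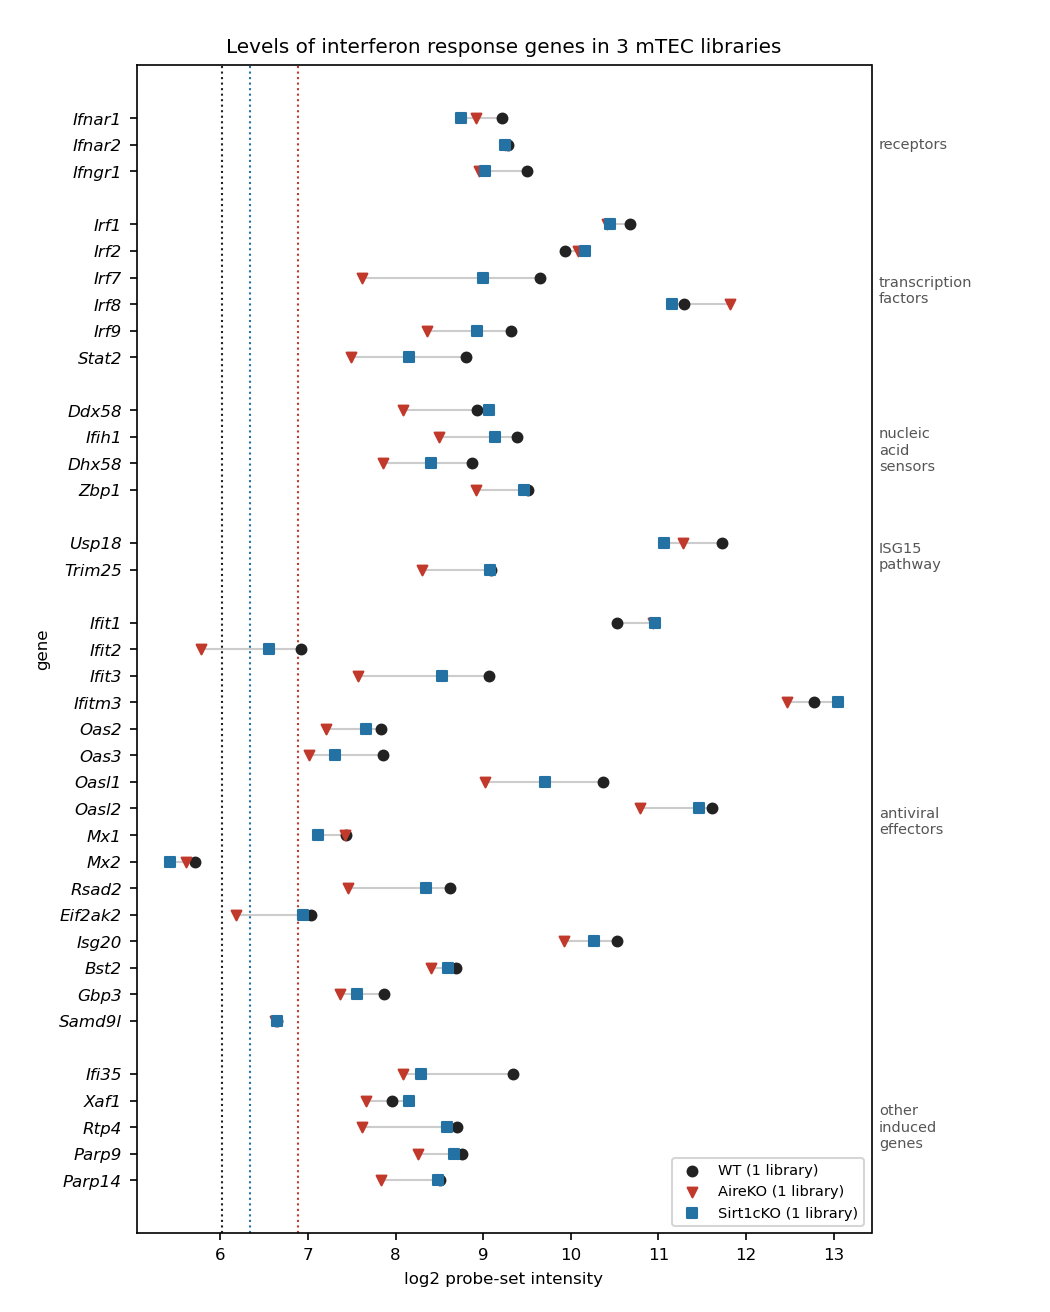
Log2 probe-set intensity (x axis) of the 36 interferon response genes with a probe set (y axis, grouped by role) in WT (circles), AireKO (triangles) and Sirt1cKO (squares), 1 library each. Dotted lines in the library colours mark the background limits of 6.02, 6.89 and 6.34. AireKO is the lowest library for most genes, and Irf7 spans the widest range, from 7.62 to 9.65.

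The receptor genes had the smallest median difference of the role groups in AireKO, -0.30, and the largest in Sirt1cKO, -0.47. Ifnar1, a chain of the type I receptor, had log2 levels of 9.22 in WT, 8.92 in AireKO and 8.74 in Sirt1cKO. Its partner Ifnar2 stood at 9.28, 9.25 and 9.25, a spread of 0.03, and its sign in AireKO turned under all 3 scalings tried. Ifngr1, the ligand-binding chain of the interferon gamma receptor, stood at 9.50, 8.95 and 9.02, with both knockout libraries about equally below WT. No receptor gene reached a 2-fold difference in either library.

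Among the 6 transcription factor genes the median in AireKO was -0.61, and 2 were at least 2-fold lower, against 8.46% of all measured genes. Irf7, the factor that amplifies type I interferon production, had levels of 9.65 in WT, 7.62 in AireKO and 9.00 in Sirt1cKO. Of the libraries, AireKO was the low library by 2.03, or 4.07-fold, the lowest difference of any measured member. Stat2, the type I signalling subunit, stood at 8.81, 7.50 and 8.16, which put AireKO 2.48-fold below WT. Its DNA-binding partner Irf9 stood at 9.32, 8.35 and 8.93, a difference of -0.97 in AireKO that just missed 2-fold. For these 3 genes Sirt1cKO lay between WT and AireKO. Irf1, which responds to interferon gamma, stood at 10.67, 10.41 and 10.44 on the brightest of its 2 probe sets. Its differences there were -0.26 in AireKO and -0.23 in Sirt1cKO. The mean of both probe sets gave 0.30 and 0.13, so the direction of Irf1 depended on the probe sets used. Irf2, a repressor of interferon targets, stood at 9.94, 10.08 and 10.16. Irf8, a factor best known from dendritic cells and macrophages, stood at 11.29, 11.81 and 11.15 and was higher in AireKO by 0.52. The highest difference of any member in AireKO was that of Irf8.

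The 4 sensors of viral RNA and DNA had a median of -0.87 in AireKO and -0.15 in Sirt1cKO. Ddx58, which encodes RIG-I, stood at 8.93 in WT, 8.08 in AireKO and 9.07 in Sirt1cKO. Ifih1, which encodes the long double-stranded RNA sensor MDA5, stood at 9.38, 8.49 and 9.13. Dhx58, the related helicase LGP2, stood at 8.87, 7.86 and 8.41, and its AireKO difference of -1.01 was lost from the 2-fold count under all 3 scalings tried. Zbp1, a sensor of Z-form nucleic acid, stood at 9.51, 8.92 and 9.46. AireKO was the lowest library for all 4 sensors, and Sirt1cKO lay above WT for Ddx58.

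Of the genes around the ubiquitin-like modifier ISG15, the protease gene Usp18, a brake on type I signalling, stood at 11.72 in WT, 11.28 in AireKO and 11.06 in Sirt1cKO. Trim25, a ubiquitin ligase gene whose product activates RIG-I, stood at 9.09, 8.30 and 9.07. The low library thus differed between them, being Sirt1cKO for Usp18 and AireKO for Trim25.

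The antiviral effectors formed the largest group, with 14 of 17 listed members measured. In AireKO 13 of the 14 stood below WT, where 63.7% of measured genes of any kind did. Mx1, at -0.01, is among the 13 and changed sign under all 3 scalings tried. The group had a median of -0.72 in AireKO, beside -0.19 for the full set of measured genes. Ifit3 stood at 9.07 in WT, 7.57 in AireKO and 8.53 in Sirt1cKO, a 2.82-fold lower level in AireKO. Its chromosomal neighbour Ifit2 stood at 6.93, 5.78 and 6.56. With the AireKO value within background, it was at least 1.03-fold lower there. Ifit1, in the same family and with the same ISRE core count, went the other way at 10.53, 10.94 and 10.95, higher than WT by 0.41 in AireKO and 0.43 in Sirt1cKO.

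The oligoadenylate synthetase family, several members of which make the second messenger that activates RNase L, had 4 listed members, all lower in AireKO. Oasl1, known as a translational inhibitor of Irf7, stood at 10.37 in WT, 9.02 in AireKO and 9.71 in Sirt1cKO, a 2.54-fold lower level in AireKO. Its neighbour Oasl2 stood at 11.61, 10.79 and 11.47. Oas2 stood at 7.83, 7.21 and 7.67, and its neighbour Oas3 at 7.86, 7.02 and 7.31. All 4 genes had the order WT, Sirt1cKO and AireKO from high to low, as did 38.2% of all measured genes. Oas1a, a measured family member outside the list, stood at 8.16, 7.76 and 7.59, with Sirt1cKO the low library.

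Rsad2, which encodes viperin, stood at 8.62 in WT, 7.46 in AireKO and 8.34 in Sirt1cKO, 2.25-fold lower in AireKO. Eif2ak2, the double-stranded RNA-activated kinase PKR, stood at 7.03, 6.18 and 6.94. With its AireKO level within background it was at least 1.11-fold lower there. The exonuclease gene Isg20 stood at 10.52, 9.92 and 10.26, and the tetherin gene Bst2, which holds budding virions at the membrane, at 8.69, 8.41 and 8.59. Gbp3, a guanylate-binding GTPase gene, stood at 7.87, 7.36 and 7.57. None of these last 3 reached a 2-fold difference.

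Ifitm3, which blocks viral entry at endosomes, stood at 12.78 in WT, 12.46 in AireKO and 13.05 in Sirt1cKO, so that Sirt1cKO was the high library. Mx1, a dynamin-like antiviral gene that is defective in most laboratory strains, stood at 7.43, 7.42 and 7.11, with the sign of its AireKO difference turned under all 3 scalings. Mx2, at 5.71, 5.61 and 5.42, lay within background in all 3 libraries, and no difference is given. Samd9l, at 6.65, 6.63 and 6.65, lay within background in AireKO alone.

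Among the other induced genes, Ifi35 stood at 9.34 in WT, 8.09 in AireKO and 8.29 in Sirt1cKO, so both knockout libraries were more than 2-fold below WT. Rtp4, a transmembrane chaperone gene, stood at 8.70, 7.62 and 8.59, with AireKO the low library by 1.08. The ADP-ribosyltransferase genes Parp9 and Parp14 stood at 8.76, 8.26 and 8.66, and at 8.51, 7.83 and 8.48. The apoptosis factor gene Xaf1 stood at 7.96, 7.66 and 8.15, its highest level being in Sirt1cKO.

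**Figure D2:**
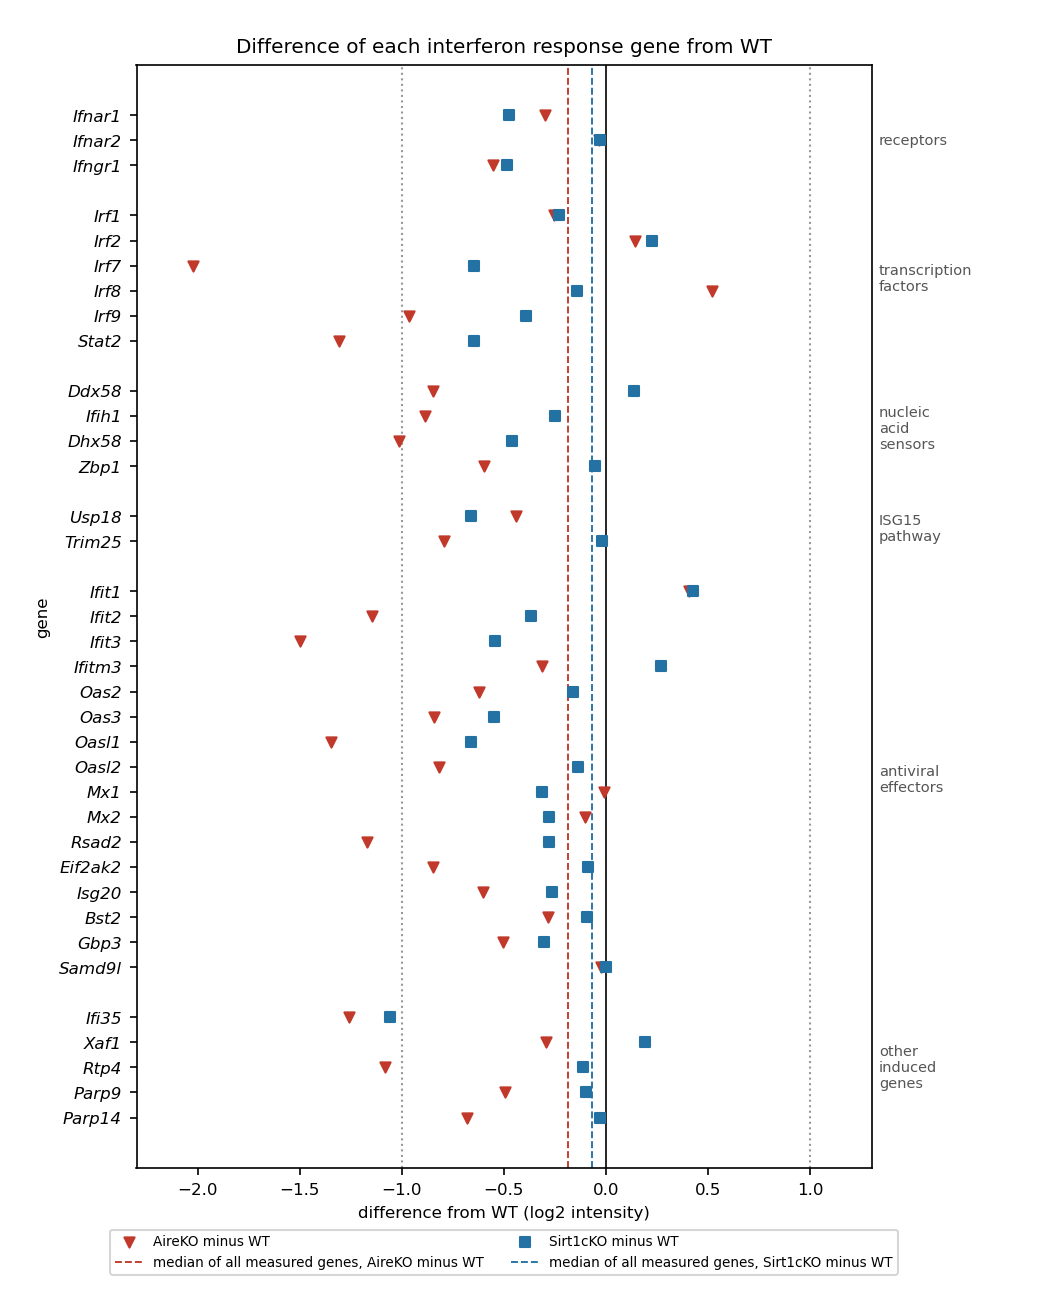
Difference from WT in log2 intensity (x axis) for each of the 36 genes (y axis, by role), with AireKO as triangles and Sirt1cKO as squares. Dashed lines mark the median of all measured genes, -0.19 and -0.07, and dotted lines 2-fold. Values within background (Mx2 in all libraries, Ifit2, Eif2ak2 and Samd9l in AireKO) are plotted as measured. Triangles lie left of the dotted line at -1 for 9 genes and squares for Ifi35 alone, while Irf2 and Ifit1 lie right of 0 in both.

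The second comparison set the library labelled Sirt1cKO against WT. In Sirt1cKO 29 of 34 measured members lay below WT, against 58.4% of all measured genes, with a median difference of -0.24 against -0.07. At least 2-fold lower was 1 member, Ifi35 at -1.06, or 2.94% against 1.68% of all measured genes, a share near the background. None was at least 2-fold higher, where 0.804% of all measured genes were. Ifi35 fell short of 2-fold after quantile normalization, loess and centring, which gave counts of 0. Next after Ifi35 were Usp18 and Oasl1, both at -0.66, and Irf7 and Stat2, both at -0.65. The 5 members above WT were Ifit1 at 0.43, Ifitm3 at 0.27, Irf2 at 0.22, Xaf1 at 0.19 and Ddx58 at 0.14. Differences of this size have no replicate spread to be read against. After quantile normalization, loess and centring, 25, 25 and 23 members lay below WT. The members' medians were then -0.16, -0.18 and -0.14, against -0.03, -0.03 and 0.03 for all measured genes.

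Both comparisons use the same WT library, so their values are set side by side without an overlap or a correlation. Set directly against each other, 30 of 34 members stood higher in Sirt1cKO than in AireKO, against 61.7% of all measured genes, with a median of 0.52 against 0.11. At least 2-fold higher was Irf7 at 1.38, which is 2.94% of the members against 2.72% of all measured genes, and no member was at least 2-fold lower, against 1.04%. Ddx58 at 0.99, Rtp4 at 0.97 and Ifit3 at 0.95 came next, and Irf8 at -0.66 and Mx1 at -0.30 lay lowest. As deposited, the order WT, Sirt1cKO, AireKO from high to low held for 25 of 34 members (73.5%), against 38.2% of all measured genes. After quantile normalization, loess and centring, 25 of 34 members each time stood higher in Sirt1cKO than in AireKO. Ifnar2, Ifngr1, Irf1, Irf2 and Ifit1 turned in all 3. The members' medians were then 0.43, 0.40 and 0.34, against 0.06, 0.04 and -0.06 for all measured genes.

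**Figure D3:**
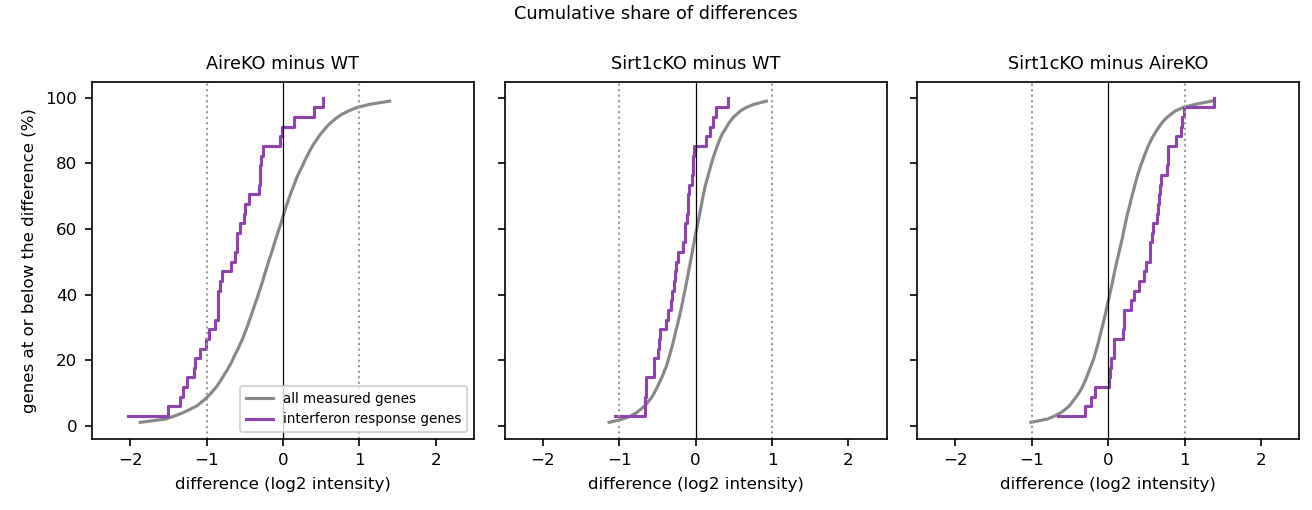
Cumulative share of genes (y axis, percent) at or below a log2 difference (x axis) for the 34 measured interferon response genes (purple steps) and all 12556 measured genes (grey line, 1st to 99th percentile), in each comparison. The purple line lies left of the grey line over most of the AireKO panel, where the medians are -0.65 and -0.19, less so for Sirt1cKO, and right of it for Sirt1cKO minus AireKO.

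A further 100 genes of the interferon system were listed by function, of which 83 had a probe set of their symbol alone and 67 passed the brightness filter. The count in AireKO was 13 lower by 2-fold or more (11 by lower bounds) and 3 higher, with a median of -0.32, where 8.46% of all measured genes were lower and 2.68% higher. Of the 3 higher, 2 were interferons, Ifng and Ifna14, whose direction the filter fixed. Likewise 1 of the 13 lower passed the filter through WT alone, and the median takes in the 5 measured interferons. After median centring 6 were lower and 6 higher, with a median of -0.05, and after quantile normalization and loess 8 were lower, with 3 and 4 higher. Of all 12556 measured genes, 548, 838 and 759 were lower and 706, 416 and 436 higher under these scalings, in the same order. As deposited, Sirt1cKO had 1 lower and 2 higher, with a median of -0.21. Of 21 interferon genes listed, 15 had a probe set of their symbol alone. Most of these 15 were dim, and 5 were measured. Ifng, Ifna14 and Ifna9 passed the brightness filter through AireKO alone, the library where they were highest, so no median is given for the interferons. Ifnb1 lay within background in all 3 libraries, and the type III receptor gene Ifnlr1, below the brightness filter, stood at 6.37 in WT and within background in both other libraries. Ifng, which encodes interferon gamma, stood at 6.58 in WT, 8.37 in AireKO and 6.29, within background, in Sirt1cKO. The AireKO level was 1.79 above WT, a difference that the filter required to be positive. Ifna14 lay within background in WT and was at least 2.00-fold higher in AireKO, a call lost after quantile normalization and loess, with log2 differences of 0.99 and 0.98.

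Receptor and signalling genes outside the list had a median of -0.53 in AireKO, with 3 of 8 measured genes at least 2-fold lower, against 8.46% of all measured genes. Socs1 and Il10rb fell short of 2-fold after quantile normalization, loess and centring, which left Ifngr2 alone and medians of -0.36, -0.33 and -0.25. Ifngr2, the signalling chain of the interferon gamma receptor, stood at 12.22 in WT, 10.37 in AireKO and 11.56 in Sirt1cKO. Socs1, a feedback inhibitor gene, stood at 9.39, 8.28 and 8.90, and Il10rb, a chain of the type III interferon receptor, at 9.50, 8.48 and 9.57. Ifnar2, Il10rb, Ifnar1 and Ifngr2 follow each other on chromosome 16 with no other coding gene between neighbours, and their AireKO differences were -0.03, -1.02, -0.30 and -1.85. Other IRF factors, with 3 measured, had a median of -0.41 and none at 2-fold.

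Nucleic acid sensing genes had a median of -0.65 in AireKO, with 2 of 8 at least 2-fold lower, against 8.46% of all measured genes. These were Sting1, the adaptor of DNA sensing, with levels of 11.52, 9.83 and 10.78, and the kinase gene Ikbke, with levels of 8.78, 7.72 and 8.25. Ikbke fell short of 2-fold after quantile normalization, loess and centring, at -0.93, -0.87 and -0.79, and Tlr3 passed 2-fold upward after loess and centring, at 1.04 and 1.16. Tlr3, the endosomal RNA receptor, stood at 7.22 in WT, 8.11 in AireKO and 8.41 in Sirt1cKO and was the gene of this list at least 2-fold higher in Sirt1cKO. Interferon-inducible GTPases, with 8 of 14 measured, had a median of -0.05 in AireKO and none at 2-fold. That median became 0.08 after quantile normalization, 0.09 after loess and 0.22 after centring. Their median in Sirt1cKO was -0.25.

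Of 35 measured other induced genes, 8 were at least 2-fold lower in AireKO and 1 higher, with a median of -0.41, where 8.46% of all measured genes were lower and 2.68% higher. After centring 4 were lower and 3 higher, with a median of -0.14, and after quantile normalization or loess 6 were lower and 2 higher. Counting folds against background as lower bounds left 6 lower and 1 higher. Lgals3bp, a secreted scavenger receptor domain protein, stood at 11.32 in WT, 8.89 in AireKO and 10.19 in Sirt1cKO. Parp12 stood at 9.38, 7.95 and 9.12, and Ifitm1, a relative of Ifitm3, at 10.22, 8.86 and 9.72. Ifi205, of the interferon-inducible p200 family, went the other way at 10.50, 12.48 and 11.85. The p200 family has near-identical copies that probes may not separate.

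**Figure D4:**
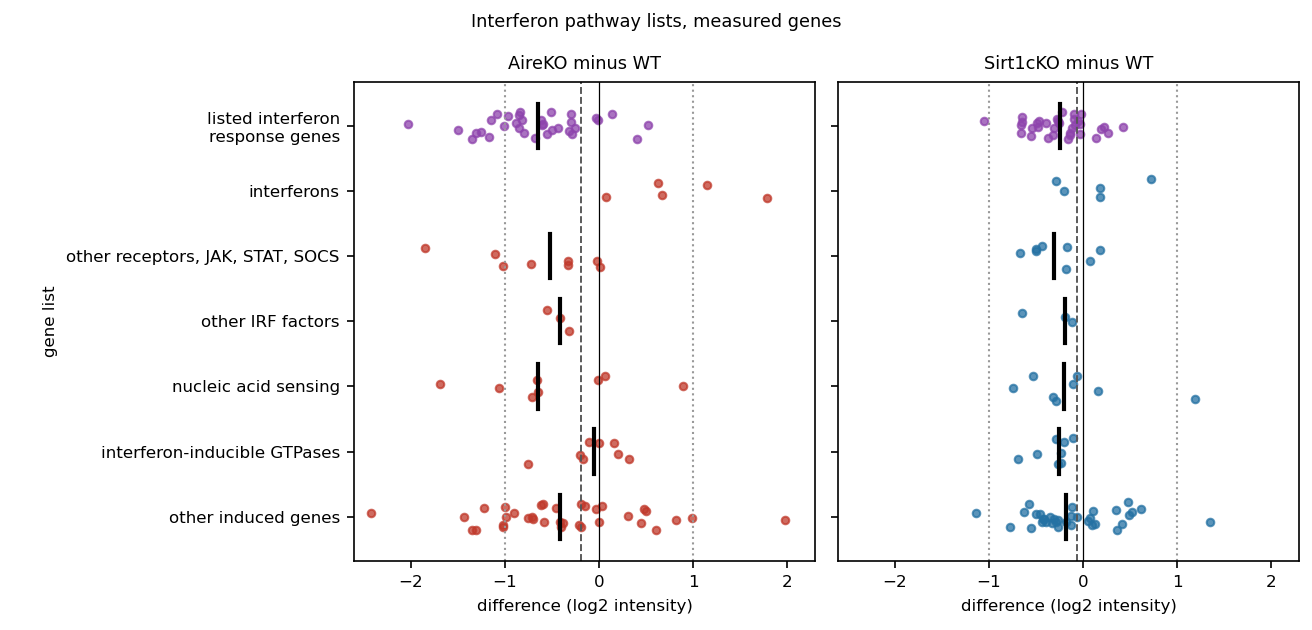
Log2 difference from WT (x axis) of the measured genes of the listed interferon response genes (purple) and of 6 other interferon lists (y axis), for AireKO (left) and Sirt1cKO (right), 1 point per gene, spread vertically for legibility. Black bars are list medians, drawn for every list but the interferons, of which 3 of 5 passed the filter through AireKO alone. The dashed line is the median of all measured genes and dotted lines mark 2-fold. In AireKO the listed genes have a median of -0.65, and interferon-inducible GTPases one of -0.05, which lies above 0 under all 3 other scalings.

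Members with and without the ISRE core overlapped in their differences. In AireKO the 12 measured members with the core had a median of -0.85 and ranged from -1.50 for Ifit3 to 0.41 for Ifit1. The 14 without it had a median of -0.70 and ranged from -2.03 for Irf7 to 0.52 for Irf8. At least 2-fold lower were 3 members with the core and 4 without. Of other measured genes with a promoter window, 10.5% with the core and 8.27% without it were. Among other measured genes, 351 with the core had a median of -0.13 and 9601 without it -0.20. In AireKO, members with a GAS had a median of -0.30 over 11 genes and those without it -0.85 over 15. In Sirt1cKO the medians were -0.17 with and -0.32 without the ISRE core.

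**Figure D5:**
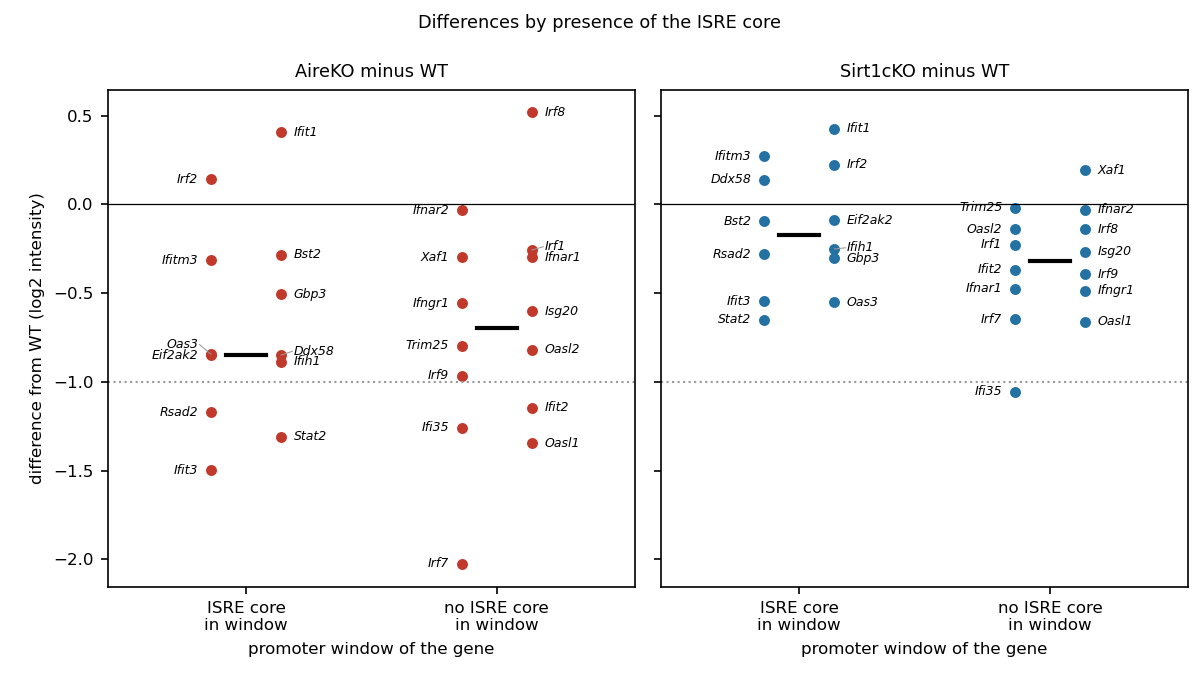
Log2 difference from WT (y axis) of measured interferon response genes with a promoter in the table, by presence of the ISRE core in the promoter window (x axis), for AireKO (left) and Sirt1cKO (right). Each point is a gene and black bars are medians, -0.85 and -0.70 in AireKO, with Ifit3 and Ifit1 at the ends of the group that holds the core.

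Marker levels of cell types also differed between the libraries. All 12 mature mTEC markers were above background in every library. In AireKO 11 of them lay below WT, where 63.7% of all measured genes did. Fezf2 is among these 11 at -0.01, and Cd80 stood above WT by 0.76. Summed intensities of the 12 were 38870, 27379 and 32287, in the order WT, AireKO and Sirt1cKO. Markers of cortical thymic epithelial cells were lower too, with sums of 17912, 12332 and 14439 over 6 genes. Of these 6, 4 were measured, and all 4 lay below WT in AireKO. Among 12 dendritic cell and macrophage markers on the array, 1 lay within background in WT, 4 in AireKO (Itgax, Itgam, Clec9a and Adgre1) and 2 in Sirt1cKO, with summed intensities of 6440, 3847 and 4414. Lyz2 made most of the difference in that sum, since the other 11 markers summed to 2179, 2116 and 1958, and in AireKO 6 of the 12 stood above WT and 6 below. The counts within background follow the limits, which differ between libraries, and Itgax was no lower in AireKO, at 6.35, than in WT, at 6.30, while Clec9a lay within background in all 3. Plasmacytoid dendritic cells, strong interferon producers, had 7 markers on the array, with summed intensities of 7627, 3952 and 6931. Without Ly6d and Spib, which mTEC also express, the other 5 summed to 944, 1188 and 1036. Cox6a2, at 8.05, 8.89 and 8.24, made most of the rise of that sum in AireKO, where 4 of the 7 markers stood above WT and 3 below. Siglech stood at 6.15 in WT and at 6.68 in AireKO, within the higher background limit of that library. B cell markers summed to 928, 942 and 887 and thymocyte markers to 1089, 1359 and 1409. The part of these shifts in the interferon differences was not tested, and in sorted bulk cells fewer cells of a type and less RNA per cell cannot be told apart.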

How the data were processed

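Amplified RNA of 3 sorted mTEC libraries was measured on arrays. The deposited values are linear probe-set intensities; RMA is listed per the submitters' processing notes. The program, its version and any step back from log2 were not given in the sources used here. All values were positive, and log2 was taken here with no further normalization. Of 34760 probe sets, 21640 had 1 symbol, 1321 several and 11799 none listed. Entrez identifiers of 99.6% of the first kind matched RefSeq (GRCm38.p6), which changed 0 symbols. Values at or below the 95th percentile of olfactory receptor genes in a library count as within background, and folds are then taken against that percentile as lower bounds. Probe sets of paralogous genes may cross-hybridise, and the number of arrays limits the precision. No test was possible with 1 library per genotype.

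The members and lists were chosen with earlier results of these data known. Named genes were the 39 members, up to 4 genes per pathway list at least 2-fold from WT, Ifnb1, Ifng, Ifnlr1, the targeted and sex-linked genes and leading markers. A further gene under that rule is not reported here. H2-Ea, Cox6a2, Oas1a, Cd80, Fezf2, the chemokines and genes named as within background were chosen after their values were seen. Older list symbols were followed to current ones where RefSeq no longer uses them. The alternatives were quantile normalization, loess (span 0.3), median centring, the mean of a gene's probe sets, no brightness filter, an olfactory receptor filter, thresholds of 1.5-fold and 3-fold, and exchange of the knockout labels. The lower-bound counts were added after the data were examined. Computation was in Python 3.11.15 with pandas 2.3.3, statsmodels 0.14.6 and numpy 2.4.6, tested on simulated data.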

Additional observations from a re-analysis of the deposited data

How the results depend on the processing

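There were 78 recomputed medians and counts of the interferon response genes, in which the mean of a gene's probe sets could alter Irf1 alone. Of the 78, 57 lay within 1.5 times the value reported with its direction kept, or were counts of 0 that stayed at 0. A further 20 moved more than that, and 1 changed sign. The last was the median of Sirt1cKO minus AireKO, at -0.52 with the knockout labels exchanged, as was Irf7 in that comparison, at -1.38. That exchange gave medians of -0.24 for AireKO and -0.65 for Sirt1cKO, with 1 and 9 members at least 2-fold lower, and 1 lower and 0 higher in Sirt1cKO minus AireKO. Median centring gave medians of -0.38, -0.14 and 0.34 in the order of the comparisons, with 4 members lower in AireKO. The count lower in Sirt1cKO was 0 after centring, quantile normalization and loess. At 1.5-fold, 20 members were lower in AireKO, 5 in Sirt1cKO, and 14 were higher and 1 lower in Sirt1cKO than in AireKO. Over all measured genes, 1.5-fold lower lay between percentiles 23 and 24 in AireKO and between 8 and 9 in Sirt1cKO. For Sirt1cKO minus AireKO, 1.5-fold higher lay between percentiles 88 and 89 and 1.5-fold lower between 4 and 5. At 3-fold the counts were 1 lower in AireKO, 0 in Sirt1cKO and 0 higher in Sirt1cKO than in AireKO. In AireKO, 3-fold lower lay between percentiles 1 and 2 of all measured genes. A stricter or looser threshold changes the counts by its construction, and for scaling the cause was not tested. No paired analysis was possible because each genotype has 1 library. Signal over background limits Ifit2, Eif2ak2, Mx2 and Samd9l.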

Other observations

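Chemokine genes that interferon gamma is known to induce were bright in all 3 libraries and stood above WT in both knockouts, unlike most of the listed genes. Cxcl9 had log2 levels of 12.21 in WT, 12.82 in AireKO and 12.57 in Sirt1cKO. Cxcl10 stood at 13.01, 13.46 and 13.49, and Cxcl11 at 10.80, 11.27 and 11.31. None differed by 2-fold. Each stayed above WT after quantile normalization, loess and median centring, with a range of 0.46 to 0.88 in AireKO under these scalings.

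Sp100, a nuclear body gene that interferon induces, stood at 9.58, 10.56 and 9.99, higher in AireKO by 0.99 and by up to 1.26 under the other scalings, while its partner Pml stood at 9.18, 8.80 and 9.00. Ifi203, a neighbour of Ifi205 in the p200 family, stood at 10.31, 11.13 and 10.92. These genes were chosen after their values were seen.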
